A study of Rattus norvegicus with 30 samples.

Results

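The comparison described here set 5 rats with a thoracic spinal cord injury (SCI) against 5 sham-operated rats, all killed 1 week after surgery. These 10 libraries, of 30 in the series, were chosen by their titles, and each is 1 rat. All rats were adult female Long Evans rats (strain Crl:LE, older than 10 weeks), and the libraries carry no other treatment in their labels. The tissue, laminae IV to VII of both sides, is the intermediate gray matter and came from a slice at the third cervical vertebral level. It therefore lay well above the injury and was not itself lesioned. Ribosomal RNA was removed from the total RNA before strand-specific libraries were made. The 5 rats of each group had been selected on RNA quality and quantity from a larger set, and rats with too small a lesion had been left out before that.

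The corticospinal tract links the motor cortex with the spinal cord and carries commands for voluntary movement. A thoracic injury cuts the fibres that serve the hindlimbs, while their course through the cervical cord stays in place. Severed hindlimb fibres are known to send new branches into the cervical gray matter, and the series title names this region as their target. The intermediate laminae hold many of the interneurons through which corticospinal fibres reach motor neurons, along with glia and vessels. In such bulk tissue, fewer cells of a type and less RNA per cell cannot be told apart.

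The deposited tables name genes only by Ensembl identifier. None of the 32545 identifiers could be paired with a symbol in the reference table used here, which is why gene families, pathways and cell types are not described, and the labelled tissue was not checked against its markers. The results are given by size, direction and abundance of the change, and for 4 identifiers chosen by rule.

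The libraries of injured rats held from 12.3 M to 18.4 M counts, where 12.3 M stands for 12340633, and those of sham rats from 10.6 M to 37.4 M. The mean total was 15.8 M ± 2.27 (SD, n = 5) after injury and 21.7 M ± 9.89 (n = 5) in sham rats. This difference did not pass an exact two-sided permutation test (p = 0.238, adjusted p = 0.559 over 3 library measures). The 10 most abundant genes took 10.9% ± 0.677 of the counts after injury and 10.8% ± 1.07 in sham rats.

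One library of the comparison has labels that disagree. Sham 1 week replicate 1 is a control by title, but its surgery and source entries state a spinal cord injury. It was kept with the sham rats. The main results are given both with and without this rat, and most also after moving it to the injured group. Confidence intervals are given only with it as sham. To show where each rat lay, the 10 rats were left out of the fit in turn. The 200 genes with the smallest p among the remaining rats were then used to place the left-out rat on a scale where 0 is the mean of the sham rats and 1 the mean of the injured rats. Sham replicates 1 to 5 stood at 0.264, 0.477, 0.202, 0.121 and 0.413. Injured replicates 1 to 5 stood at 0.518, 0.878, 0.741, 0.725 and 0.716. The library with conflicting labels thus lay among the sham rats, the third lowest of the 5, on genes picked without it. The groups did not overlap with 100 or 200 genes, but with 500 genes sham replicate 2 at 0.513 passed injured replicate 1 at 0.448.

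**Figure D1:**
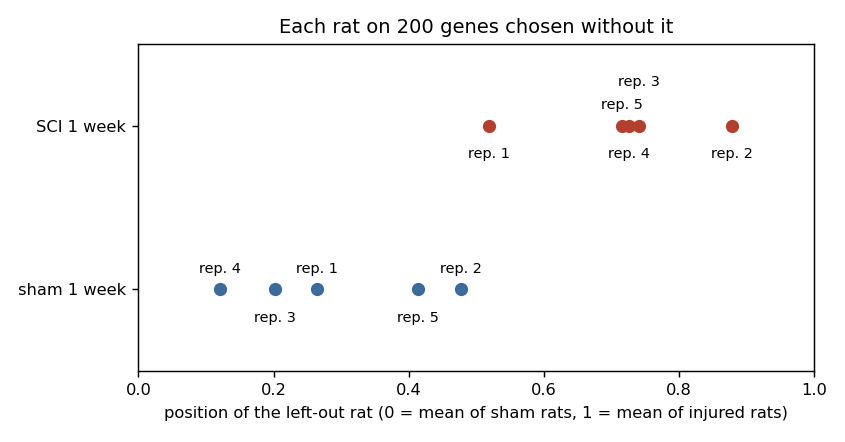
Position of each rat of 1 week (dots, rows by group) on 200 genes chosen without that rat, with 0 for the mean of the sham rats and 1 for the mean of the injured rats. Sham rats lie between 0.121 and 0.477, replicate 1 at 0.264, and injured rats between 0.518 and 0.878.

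One week after the injury, most genes of the cervical intermediate gray matter stood close to their sham level. The unit of level is CPM, a count divided by the scaled total of its library, and changes are given as log2 fold change of injured over sham rats. Over 14801 genes tested, the median absolute log2 fold change was 0.11 and the median signed change was -0.0032. The absolute change stayed below 0.523 for 95% of genes. Injured rats had the higher level in 49.2% of genes. The 95% confidence interval of the change lay within 2-fold in both directions for 89.9% of genes, and within 1.5-fold for 75%. Without sham 1 week replicate 1 the median absolute change was 0.118, and injured rats were higher in 49.9% of these genes. With that rat counted as injured the values were 0.108 and 51.1%.

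A small set of genes passed the threshold of 0.05 on the adjusted p. These were 53 genes, 0.358% of those tested, of which 25 rose (0.169%) and 28 fell (0.189%) in injured rats (Benjamini-Hochberg adjusted p from the quasi-likelihood test of edgeR). Of the 53, 10 changed by less than 1.25-fold, and 43 by at least 1.25-fold. In each of the 10 libraries the 53 genes together took between 0.42% and 0.477% of all counts.

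Before adjustment, 2061 genes (13.9%) had a p under 0.05, with 1011 higher (6.83%) and 1050 lower (7.09%) after injury. All 5 injured rats lay outside the range of the 5 sham rats in 519 genes, 3.51% of those tested, with 273 higher (1.84%) and 246 lower (1.66%). Without sham 1 week replicate 1, 743 genes (5.02%) did so, a count that the smaller group raises by itself.

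The 3 genes past 2-fold were all scarce, with geometric mean levels of 0.727 to 2.09 CPM and from 2 to 73 counts in a library. One fell from 2.77 CPM ± 0.819 (SD, n = 5) to 1.29 ± 0.41, a log2 fold change of -1.09 ± 0.257 (standard error, edgeR, adjusted p = 0.0431). The second rose from 0.432 CPM ± 0.216 to 1.42 ± 0.671, a change of 1.67 ± 0.378 (edgeR, adjusted p = 0.0397). The third rose from 0.33 CPM ± 0.123 to 1.24 ± 0.529, a change of 1.85 ± 0.429 (edgeR, adjusted p = 0.0431). Without sham 1 week replicate 1 their adjusted p was 0.0525, 0.0525 and 0.0801 (edgeR). DESeq2 called the gene that fell and gave no adjusted p for the 2 that rose, which are the 2 of the 53 it did not call. The 3 were singled out by size after their values were seen. The other 50 changed by 0.264 to 0.86 on the log2 scale, at levels from 4.04 to 1190 CPM.

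**Figure D2:**
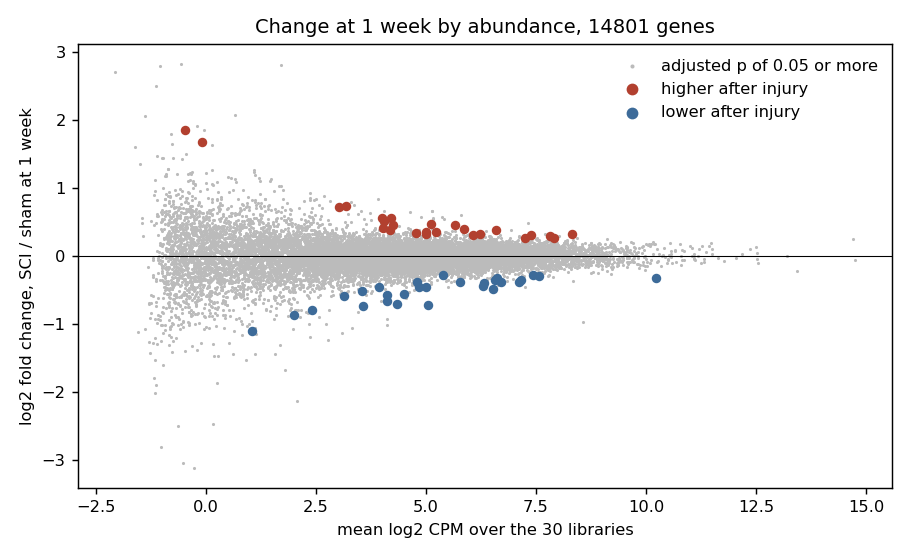
Log2 fold change of injured over sham rats at 1 week (vertical) against mean log2 CPM over the 30 libraries (horizontal), 1 dot per gene, with the 25 genes that rose in red and the 28 that fell in blue. Grey dots fan out at low abundance, where the standard errors are large, and the coloured dots beyond 2-fold lie at the left.

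How the size of the change depended on abundance was read from 8 equal bins of about 1850 genes, ordered by mean log2 CPM. The median absolute log2 fold change was 0.307 in the scarcest bin, with levels from 0.241 to 1.73 CPM. It fell through 0.187, 0.126, 0.108, 0.0959, 0.0819 and 0.0827 to 0.0785 in the most abundant bin, at 112 CPM and above. The median standard error fell faster, from 0.395 to 0.0671. In the 3 scarcest bins and in the fourth and sixth, the typical change was thus smaller than its typical error, and in the 2 most abundant bins it was larger. A median change below the error does not mean that a bin held no change, as the shares of small p below show. Without sham 1 week replicate 1 the median absolute change was 0.308 in the scarcest bin and 0.0852 in the most abundant. With that rat counted as injured the values were 0.289 and 0.0763.

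The share of genes with an unadjusted p under 0.05 ran the other way. It was 7.73% in the scarcest bin, 13.4% in the fourth and 20.6% in the most abundant. Leaving out each of the 10 rats in turn gave 5.68% to 7.73% in the scarcest bin and 14.9% to 23.4% in the most abundant. These fits share most of their rats, so the ranges show the weight of single rats and not the sampling spread. The part of the smaller standard errors at high abundance in this climb was not tested. Without sham 1 week replicate 1 these shares were 5.68% and 19.4%, and with it counted as injured they were 5.19% and 16.4%. With log2 library total as a covariate they were 7.35% and 17.1%. In the rats of 12 weeks, where injured and sham libraries share none with those of 1 week, the same shares were 3.73% and 6.86%. Between the sham groups, 12 weeks against 1 week, they were 4.43% and 12.3%, so a climb with abundance was not particular to the injury. That comparison uses the same sham rats of 1 week. The differences in these shares between comparisons were not tested.

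Genes past the adjusted threshold were spread over all bins, with 2, 2, 4, 11, 8, 6, 10 and 10 from the scarcest to the most abundant, or 0.108% and 0.541% of the genes in the first and last. Abundance also set what could be seen. The interval lay within 1.5-fold for 0.486% of genes in the scarcest bin, 33.9% in the second, 80.3% in the third and 99% in the most abundant. Below about 5.16 CPM, the upper edge of the second bin, the intervals of most genes thus still held a 1.5-fold change in 1 direction or both.

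Direction was not even across abundance. Injured rats had the higher level in 50.1% of genes in the scarcest bin, 43.7% in the fourth, which spans 11.2 to 20.2 CPM, and 55.9% in the most abundant. Among genes with an unadjusted p under 0.05, the fourth bin had 99 higher and 148 lower, and the most abundant bin 219 higher and 163 lower. In the most abundant bin the rats of both groups did not overlap in 112 genes, 6.05% of that bin, with 77 higher and 35 lower. The median shifts behind these shares were small, -0.0232 in the fourth bin and 0.0166 in the most abundant.

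The share of higher genes ranged from 42.1% to 44.5% in the fourth bin and from 51.2% to 58.4% in the most abundant when each rat was left out. With DESeq2 size factors in place of TMM scaling the shares were 43.8% and 56.3%. With sham 1 week replicate 1 counted as injured they were 46% and 52.8%, and the small p in the most abundant bin then split into 149 higher and 155 lower. Without that rat the share in the most abundant bin was 54.2%, and the small p split into 187 higher and 172 lower. Without injured replicate 4 the share was 51.2% and the split 168 to 163. It was 57.2%, 56.3%, 55.7% and 53.1% without injured replicates 1, 2, 3 and 5. Without sham replicates 2 to 5 it was 57.7%, 58.4%, 53.8% and 52.8%. The surplus of higher genes in that bin thus shrank with the label of 1 rat and moved in both directions with the absence of others.

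**Figure D3:**
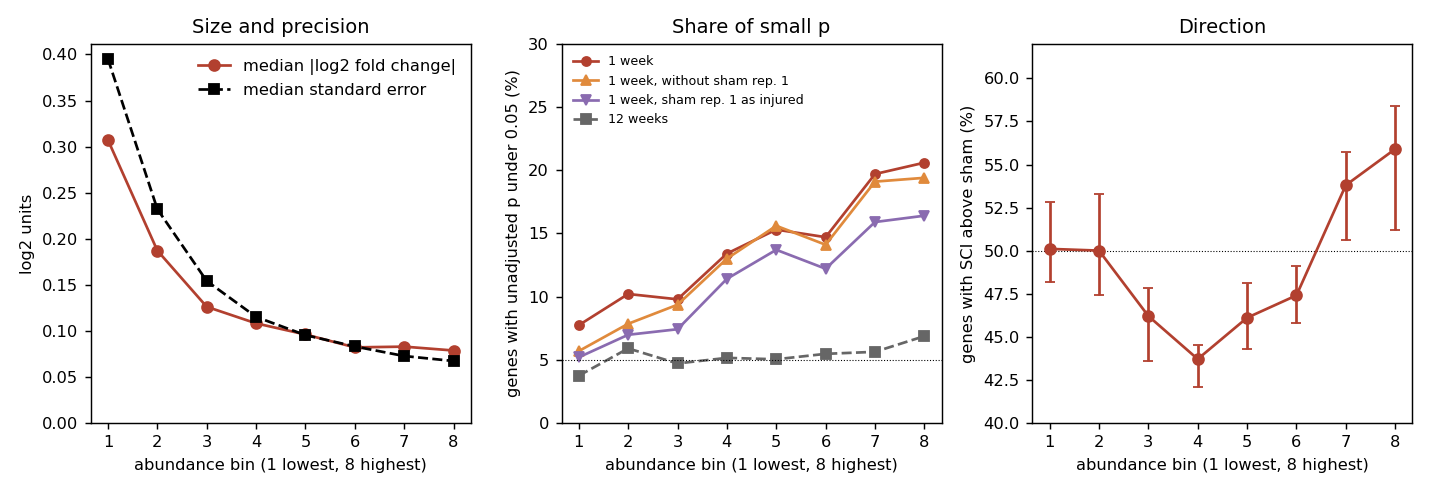
The 8 abundance bins from lowest to highest (horizontal). Left, median absolute log2 fold change and median standard error in log2 units. Middle, percent of genes with an unadjusted p under 0.05 at 1 week under the 3 treatments of sham replicate 1 and at 12 weeks, with a dotted line at 5%. Right, percent of genes with injured above sham (axis from 40%), with bars for the range over 10 fits that each leave out 1 rat. The share of small p climbs from 7.73% to 20.6% at 1 week and from 3.73% to 6.86% at 12 weeks.

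The 2 genes with the smallest p in each direction were taken as the 4 named examples, although other genes that fell had a smaller p than ENSRNOG00000008788. They were chosen on these same rats, so the separation of the groups in them is a description. ENSRNOG00000036866 stood at 60.5, 58, 61.4, 58.8 and 65.6 CPM in sham replicates 1 to 5, and at 72.5, 76.4, 75.9, 72.7 and 77.8 CPM in injured replicates 1 to 5. Every injured rat was above every sham rat, with a gap of 6.9 CPM between the nearest pair. Its level was 1.23 times that of sham rats, a log2 fold change of 0.30 with a 95% interval of 0.18 to 0.42 (edgeR, adjusted p = 0.0238).

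ENSRNOG00000008788 was more abundant, at 140, 141, 129, 133 and 146 CPM in sham replicates 1 to 5. In injured replicates 1 to 5 it was at 164, 170, 159, 162 and 171 CPM, again without overlap. The change was 1.2-fold, or 0.26 on the log2 scale with an interval of 0.16 to 0.37 (edgeR, adjusted p = 0.0238). Within a group its rats differed little, with coefficients of variation of 4.76% in sham and 3.01% in injured rats.

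ENSRNOG00000002635 stood at 58.3, 62.9, 64, 56 and 64.3 CPM in sham replicates 1 to 5, and at 44, 48.6, 45.3, 46.3 and 49.7 CPM in injured replicates 1 to 5. Each injured rat was below each sham rat. The level after injury was 0.765 of that in sham rats, a log2 fold change of -0.39 with an interval of -0.52 to -0.25 (edgeR, adjusted p = 0.0112).

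ENSRNOG00000039876 had the largest change of the 4 and the widest spread. Its levels were 28, 27.3, 24.6, 26.6 and 19.6 CPM in sham replicates 1 to 5, and 15.4, 13.9, 13.4, 15.8 and 18.8 CPM in injured replicates 1 to 5. The groups nearly met, since sham replicate 5 was 0.8 CPM above injured replicate 5. The log2 fold change was -0.71 with an interval of -0.96 to -0.46 (edgeR, adjusted p = 0.0112). The coefficients of variation were 13.4% in sham and 13.5% in injured rats. Without sham 1 week replicate 1 the log2 fold changes of the 4 genes, in the order above, were 0.30, 0.27, -0.40 and -0.66. Their adjusted p was then 0.0525, 0.0525, 0.0266 and 0.0525 (edgeR). With that rat counted as injured the changes were 0.25, 0.23, -0.34 and -0.47 (edgeR, adjusted p = 0.192, 0.17, 0.17 and 0.271). In all 4 genes sham 1 week replicate 1 lay within the range of the other sham rats or beyond it on the side away from the injured rats. The 4 were chosen with that rat counted as sham, which favours such a place, so this cannot speak to its label.

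In the later groups these levels lay nearer together. ENSRNOG00000036866 ranged from 59.6 to 66.2 CPM in injured rats of 12 weeks and from 65.8 to 69.6 CPM in sham rats of 12 weeks. ENSRNOG00000008788 ranged from 145 to 160 and from 143 to 168 CPM in the same groups. ENSRNOG00000002635 ranged from 56.5 to 60.4 and from 52.9 to 61.5 CPM, and ENSRNOG00000039876 from 20 to 24 and from 18 to 22.7 CPM. At 12 weeks their log2 fold changes were -0.11 ± 0.0586, -0.04 ± 0.0529, 0.03 ± 0.0667 and 0.15 ± 0.123 (standard error, edgeR, adjusted p from 0.903 to 0.983). Each was opposite in sign to that of 1 week, but small beside its error (unadjusted p from 0.0786 to 0.704, edgeR). Of the 53 genes, 22 had the same sign at both weeks, and of all 14801 tested 7954 did. The sham means differed between weeks as well. At 1 and 12 weeks they were 60.9 and 67.3 CPM in ENSRNOG00000036866, and 138 and 155 in ENSRNOG00000008788. They were 61.1 and 57.1 CPM in ENSRNOG00000002635, and 25.2 and 20.2 in ENSRNOG00000039876. In each, the sham mean of 12 weeks lay nearer the injured mean of 1 week. Between the sham groups of 1 and 12 weeks no gene passed with edgeR (smallest adjusted p = 0.199). An unadjusted p under 0.05 was seen for 1219 genes, 8.24% of those tested (edgeR). For this contrast DESeq2 called 7 genes (0.0473%) and limma-voom 0.

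**Figure D4:**
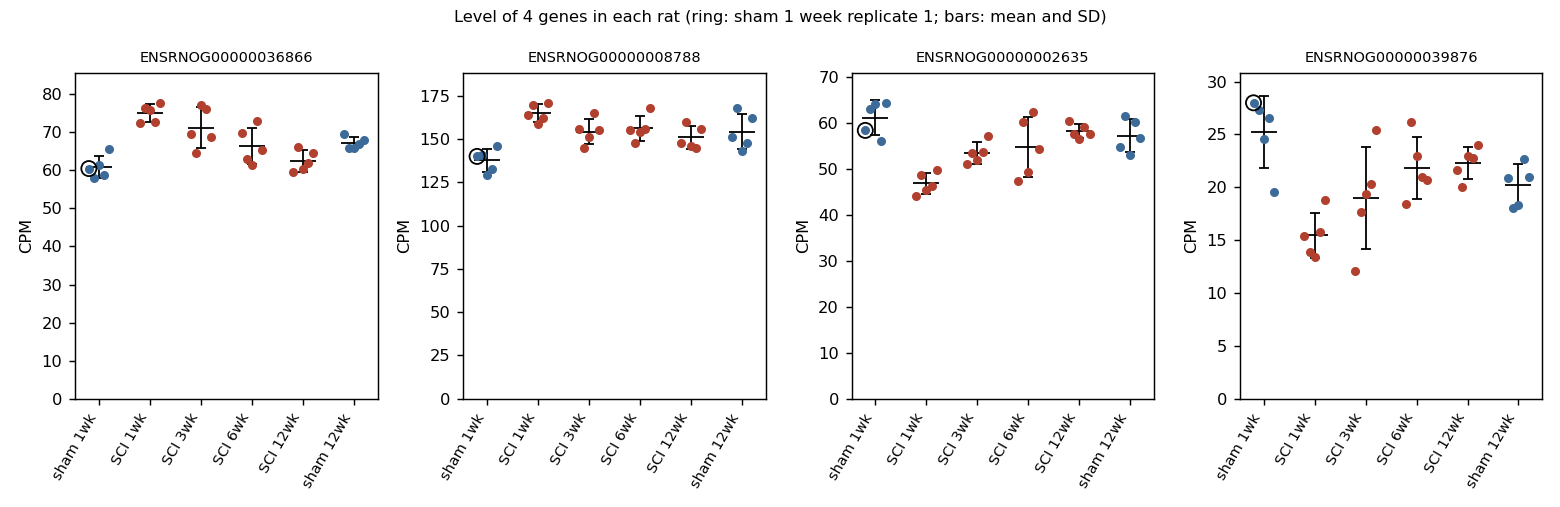
Level in CPM (vertical, from 0) of the 4 named genes in every rat of the 6 groups (horizontal), sham in blue and injured in red, with bars for mean and SD (n = 5) and a ring around sham 1 week replicate 1. At 1 week the dots of both groups do not overlap in any of the 4, and ENSRNOG00000039876 comes nearest to overlap, with 19.6 against 18.8 CPM.

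Whether the injury effect of 1 week differed from that of 12 weeks was tested in the same model as the difference of the 2 effects. No gene passed (0%, edgeR, smallest adjusted p = 0.0548), with an unadjusted p under 0.05 for 1240 genes, while DESeq2 called 24 and limma-voom 3. Without sham 1 week replicate 1, 1 gene passed (0.00671%, edgeR, adjusted p = 0.0435), which was not one of the 4 named. For the named genes the differences between weeks were 0.41, 0.30, -0.41 and -0.86 on the log2 scale (edgeR, adjusted p = 0.0906, 0.2, 0.2 and 0.0906). DESeq2 called all 4 for this difference (adjusted p = 0.00449, 0.0299, 0.0242 and 0.0049), and also without sham 1 week replicate 1 (adjusted p = 0.0102, 0.026, 0.0158 and 0.0156). The limma-voom fit called ENSRNOG00000036866 and ENSRNOG00000039876 (adjusted p = 0.0488 each). The 4 were chosen for their change at 1 week, which favours such differences.

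The adjusted threshold, more than the size of the changes, was sensitive to single rats. Without sham 1 week replicate 1, 1 gene of 14909 passed (0.00671%, edgeR), which was ENSRNOG00000002635, and with that rat counted as injured none did (0%, smallest adjusted p = 0.17), with an unadjusted p under 0.05 for 1657 genes. The 53 genes nevertheless kept their sign and an unadjusted p under 0.05 without it in 53 of 53, with a median absolute log2 fold change of 0.429 against 0.403. Their adjusted p without it ran from 0.0266 to 0.0935. Over all genes, 44 then lay under 0.06 and 131 under 0.1, against 93 and 169 with it. Counted as injured, the 53 also kept their sign, 52 kept an unadjusted p under 0.05, and their median absolute change was 0.348. All of these values come from rats that took part in the choice of the 53.

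DESeq2 called 217 genes (1.47%) and limma-voom 164 (1.11%) with all rats, of which 51 and 53 were among the 53. Without sham 1 week replicate 1 these tools called 190 (1.27%) and 139 (0.932%). For these tools the count was thus within 1.5 times of that with the rat.

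Other rats of the comparison also moved the edgeR count. It was 1, 0, 3 and 27 without injured replicates 2, 3, 4 and 5, and 3, 2 and 33 without sham replicates 3, 4 and 5. It was 52 without injured replicate 1 and 56 without sham replicate 2, of which 37 and 36 were among the 53. Rats outside the comparison also entered the fit, through the shared estimate of the spread and the filter on low counts. For 15 of these 20 libraries, leaving 1 out kept the count within 1.5 times of 53, and the other 5 moved it further. Without SCI 3 weeks replicates 1 and 2, 128 and 19 genes passed. Without SCI 6 weeks replicate 5, SCI 12 weeks replicate 4 and sham 12 weeks replicate 1, the counts were 35, 19 and 33. With log2 library total as a covariate 2 genes passed (0.0135%). The part of depth in the result was not tested beyond that fit.

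**Figure D5:**
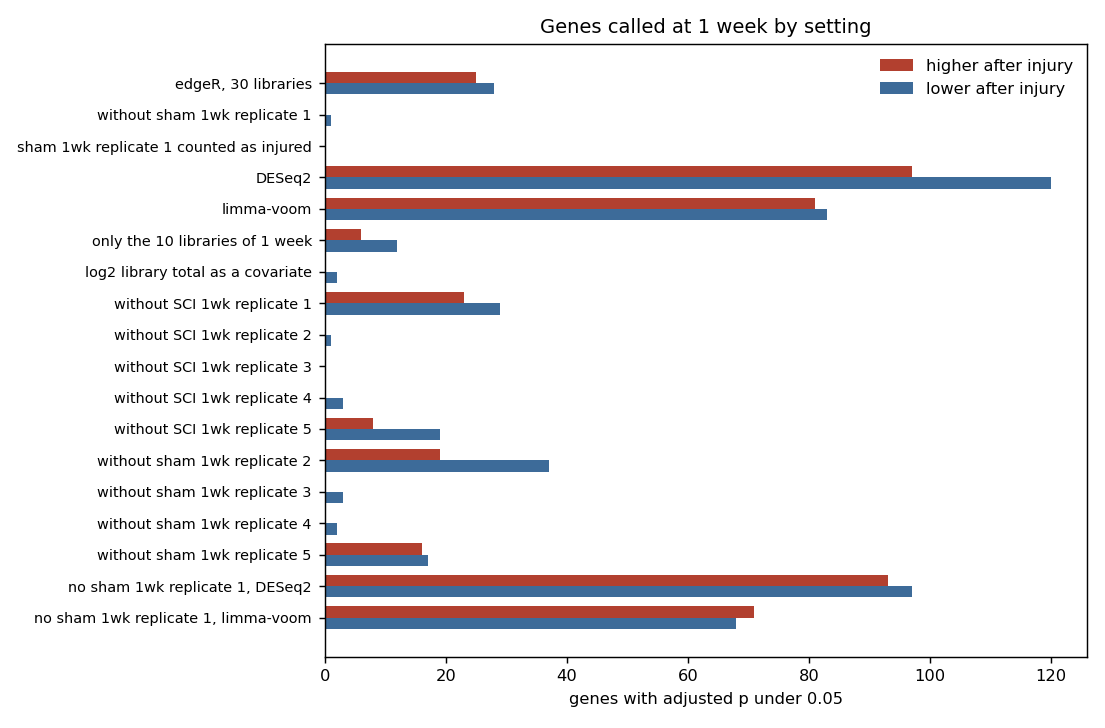
Number of genes with an adjusted p under 0.05 at 1 week (horizontal), higher in red and lower in blue, for edgeR with 30 libraries, for other tools and fits, and with each of the 10 rats left out. Bars reach 97 and 120 with DESeq2, 25 and 28 with edgeR, and 0 and 1 with edgeR without sham replicate 1.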

How the data were processed

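The authors deposited 1 table of raw counts per library, with 1 row per gene identifier. Per the submitters' processing notes, the tools were STAR 2.5.3a, Trimmomatic, featureCounts, Subread and bcl2fastq 2.19.05, and the build was Rnor_6.0. Not given in the sources used here are the annotation, the strand setting and the treatment of reads with several matches, so overlapping genes and near-identical copies are uncertain.

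Counts were tested with edgeR 4.0.16 (TMM, filterByExpr, robust quasi-likelihood fit, R 4.3.3) in 1 model of 30 libraries in 6 groups. The filter kept 14801 genes with 99.941% of counts. The common dispersion was 0.0144. Alternatives used DESeq2 1.42.0 and limma 3.58.1. Standard errors and intervals follow from the F statistic of each fold change. Positions and bins rest on log2 CPM (prior count 2), in Python 3.11.15. The edgeR fit and the left-out positions were first run on simulated data with known changes. Each library is described as 1 rat. Chi-square per degree of freedom between libraries of a group ran from 8.04 to 34.8, so none agreed within sampling noise.

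The members, lists and rules were chosen with earlier results of these data known, and the left-out positions and added fits after seeing the data. Named genes were to be the 12 with the smallest p per direction and members of 59 gene lists. As 0 of 32545 identifiers matched the reference table (assembly GRCr8, 47357 rows), the rule's fallback of 2 identifiers per direction was used, and no list or marker was tested.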

Additional observations from a re-analysis of the deposited data

How the results depend on the processing

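The 53 genes kept their direction under all 44 alternative settings, the 4 named genes included. They were chosen in the main fit, and the settings reuse all or most of the same 10 rats, which favours a kept direction. ENSRNOG00000002635 kept its call in 41 of 44, against 39 for ENSRNOG00000039876 and 33 for each of the 2 that rose (adjusted p at most 0.271). Of the 44, 20 only leave out a library outside the comparison, and another only loosens the threshold. Leaving out each rat of 1 week in turn gave 10 fits. Of these, ENSRNOG00000002635 kept its call in 9, ENSRNOG00000039876 in 7 and the 2 that rose in 4 each (edgeR, adjusted p at most 0.125). The counts of 25 higher and 28 lower genes became 97 and 120 with DESeq2, 81 and 83 with limma-voom, 76 and 93 at a threshold of 0.1, 6 and 12 with only the 10 libraries of 1 week, 0 and 2 with library total as a covariate, and 0 and 0 with sham 1 week replicate 1 counted as injured. The fits without that rat, added after seeing the data, gave 93 and 97 with DESeq2, 71 and 68 with limma-voom, and 4 and 6 with the other 9 libraries of 1 week. Leaving out each of 30 libraries gave 0 to 50 higher and 0 to 78 lower genes. The fit with the replicate number as a block, on the 10 libraries of 1 week, called 0 and 0 genes (1674 at an unadjusted p under 0.05). Same-numbered rats correlated at -0.294 to 0.043, against -0.34 to 0.288 for other pairs, and no sham rat correlated best with its own number. With so few rats these correlations cannot decide whether the numbers pair the rats. The count of 0 for the difference between weeks was 24 with DESeq2, 3 with limma-voom, 3 at a threshold of 0.1, 1 without robust estimation, 39 and 1 with DESeq2 and limma-voom without sham 1 week replicate 1, and 0 to 2 with a library left out. With 4 bins in place of 8, the least abundant bin had a median absolute change of 0.238 and 8.94% of genes at an unadjusted p under 0.05. In each case the cause was not tested, apart from the fewer libraries or wider bins that define a setting. Medians of gene lists were not run because no identifier could be named.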

Other observations

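The spread between rats fell with abundance alike in both groups. The median SD of log2 CPM went from 0.516 in injured and 0.483 in sham rats in the scarcest bin to 0.0926 and 0.0987 in the most abundant. Over 11175 genes above 5 CPM, the root mean square distance of a rat to the mean of the other 4 of its group ran from 0.188 to 0.226 log2 units. The distance to sets of 4 rats of the other group was larger for 8 of the 10 rats, sham 1 week replicate 1 included (0.222 against 0.197). It was smaller for sham replicate 2 (0.214 against 0.226) and injured replicate 1 (0.218 against 0.22), the rats nearest to the other group in the left-out positions.

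No identifier had counts in all 5 injured rats and 0 in all 5 sham rats. The opposite pattern held for 3 identifiers, with at most 20 counts in all over the 10 libraries, at a depth that was higher on average in the sham rats.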
